A study of Schizosaccharomyces pombe 972h- with 8 samples.

Results

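The genes described here encode the proteins of the large subunit of the cytosolic ribosome of the fission yeast *Schizosaccharomyces pombe*, together with their paralogues, the extra gene copies that encode the same protein. They were taken by name: a gene entered the set when its first name in the deposited tables was rpl followed by a number, with or without a final letter, or rpp0 or rpp followed by a 3-digit number. The rule found 78 of the 4854 genes that both tables hold, and no gene had to be left out for a mitochondrial name. The current annotation lists 2 of them, rpl703 and rpl2403, as the assembly factors Rlp7 and Rlp24. These resemble a ribosomal protein in sequence but leave the particle before it is mature. The other 76 were taken as genes of ribosomal proteins. Among these, the annotation describes rpl701 as an RNase MRP subunit like ribosomal protein L7, and rpl44 only as a protein with a domain of the L28e family. The 76 genes encode 43 different proteins, 14 from a single gene of the set and 29 from a family of 2 or 3 genes. A copy that the rule did not find in the tables is not counted, so the set may be incomplete.

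Wild-type cells of strain 972 h- were grown in yeast extract medium, and 2 cultures, each started from its own colony, were sampled before (control) and 30 min after the addition of 0.5 mM hydrogen peroxide (H2O2). The RNA of each sample was hybridized both to an expression microarray, called Sp_EMA, and to a strand-specific tiling microarray, called Sp_TMA, which gave 8 arrays, 2 per group on either platform. All samples share the strain and the medium, and the platforms measured the same cultures. No untreated sample was taken at 30 min. The effect of H2O2 and that of 30 min of further growth therefore cannot be told apart. A change is the mean log2 signal of the H2O2 arrays minus that of the control arrays of one platform, and a gene is called higher or lower at an adjusted p below 0.05 (limma, Benjamini-Hochberg over all 4854 genes).

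The ribosome is the most abundant machine of a growing yeast cell, and its proteins are made in equal amounts from strongly transcribed genes. The large subunit holds the peptidyl transferase centre, the tunnel through which the new protein leaves and, on one side, the acidic stalk that recruits translation factors. Stress that slows growth is known to lower the RNAs for ribosomal proteins, and even more those for the factors that build ribosomes. In *S. pombe* the promoters of ribosomal protein genes often carry a HomolD box, which takes the place of a TATA box, and in many of them a HomolE box lies just before it.

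The members share these promoter words, which the rule did not use. HomolD, searched as CAGTCACA on both strands of the 250 bases before the annotated gene start, was present before 49 of the 78 genes (62.8%), against 134 of 5112 protein-coding genes of the genome (2.62%). Its median distance from the gene start was 44 bases, and 47 of the 49 matches lay 30 to 80 bases before it. The 2 outside that window were before rpl701 (9 bases) and rpl902 (141 bases). The core of HomolE, searched as CCCTACCCT, was present before 24 genes (30.8%), against 1.49% of all genes, and its matches lay 53 to 78 bases before the start. Both words were found before 14 genes, and at least one of them before 59. With the last base of HomolD left free, the word CAGTCAC, chosen after the sequences were seen, was found before 70 of the 78 genes (89.7%) and before 4.52% of all genes. These are matches of letters and not tested sites.

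**Figure D1:**
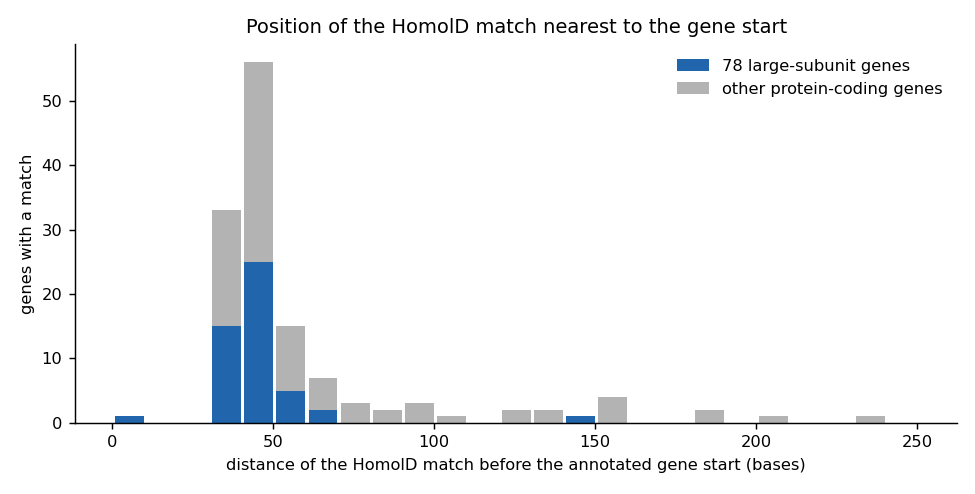
Number of genes (vertical axis) with a HomolD match at each distance in bases before the annotated gene start (horizontal axis, bins of 10 bases), with the 78 large-subunit genes in blue and other protein-coding genes stacked above them in grey. The matches of the large-subunit genes gather in a narrow window around their median of 44 bases.

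The 100 bases before the gene start are shown for 10 genes, from the RefSeq genome of build ASM294v3, 5′ to 3′ on the strand of the gene. Capitals mark HomolD, its 7-base core where the last base differs, and the core of HomolE. The first 4 show the arrangement of both boxes, with HomolE before HomolD, in genes of the proteins uL6, uL5, uL2 and eL18.
rpl901, chrI:2284229-2284328, reverse strand: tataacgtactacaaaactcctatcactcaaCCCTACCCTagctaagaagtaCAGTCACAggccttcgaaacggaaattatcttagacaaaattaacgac
rpl1101, chrI:3346886-3346985, reverse strand: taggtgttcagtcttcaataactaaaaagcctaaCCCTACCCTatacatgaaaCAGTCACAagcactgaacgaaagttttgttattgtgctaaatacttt
rpl803, chrII:601152-601251, forward strand: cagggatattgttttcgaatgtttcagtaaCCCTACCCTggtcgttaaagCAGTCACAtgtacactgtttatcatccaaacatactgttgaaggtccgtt
rpl1802, chrI:1285516-1285615, forward strand: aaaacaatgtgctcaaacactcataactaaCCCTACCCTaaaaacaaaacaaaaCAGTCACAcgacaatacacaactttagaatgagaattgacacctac

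The next 5 are the paralogues of the families eL34 and uL13, whose changes differ most on Sp_TMA.
rpl34, chrI:4093799-4093898, reverse strand: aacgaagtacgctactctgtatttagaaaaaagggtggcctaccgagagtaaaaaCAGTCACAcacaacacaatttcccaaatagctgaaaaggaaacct
rpl3402, chrIII:1321248-1321347, forward strand: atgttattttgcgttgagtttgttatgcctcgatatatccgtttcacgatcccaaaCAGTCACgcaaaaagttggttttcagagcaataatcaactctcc
rpl1601, chrII:624056-624155, reverse strand: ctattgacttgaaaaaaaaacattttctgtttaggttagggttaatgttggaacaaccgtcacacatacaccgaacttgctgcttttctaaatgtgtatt
rpl1602, chrI:4097226-4097325, forward strand: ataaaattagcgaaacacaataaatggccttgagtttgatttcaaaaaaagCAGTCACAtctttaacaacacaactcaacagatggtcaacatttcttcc
rpl1603, chrII:3443154-3443253, forward strand: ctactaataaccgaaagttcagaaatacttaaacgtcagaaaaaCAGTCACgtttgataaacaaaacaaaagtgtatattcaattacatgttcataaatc

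The last is the promoter of the assembly factor gene rpl703, which carries a HomolD box 40 bases before its start.
rpl703, chrI:1712685-1712784, forward strand: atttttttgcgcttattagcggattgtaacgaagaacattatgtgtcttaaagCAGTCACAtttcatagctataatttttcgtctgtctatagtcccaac

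The treatment could be seen in both tables: 8 of 8 genes of the oxidative stress response, among them ctt1 (catalase) and srx1 (sulfiredoxin), rose on both platforms. The large-subunit genes were among the brightest of the genome. On Sp_EMA the median signal of the 78 genes was 14.49 and 14.47 in the control arrays, where the brightest gene of each array stood at 14.93, and the control mean of 44 of the 78 genes lay within 0.5 of the array maximum. On Sp_TMA the medians were 13.71 and 13.79 and the maxima 15.24 and 15.28, with 5 genes within 0.5 of the maximum. Whether signals this close to the top of the scale compress a change was not tested. Over all genes 56.5% were called on Sp_TMA and 59.0% on Sp_EMA. Of genes of other functions with a control mean of at least 14, 25 of 84 (29.8%) and 21 of 123 (17.1%) were called. Their changes reached down to -1.52 and -1.40. Of the ribosomal protein members with a control mean of at least 14, 3 of 33 (9.09%) and 0 of 71 were called.

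The 2 H2O2 arrays of Sp_TMA differed from each other for these genes, and 2 arrays cannot show which of them departs. On Sp_TMA the H2O2 array of culture 2 was below that of culture 1 in 76 of the 78 genes, with a median gap of -0.24, whereas over all 4854 genes 51.2% were lower and the median gap was near 0. On Sp_EMA, with the same 2 cultures, 56 of 78 were lower and the median gap was -0.01. The median change on Sp_TMA was accordingly -0.06 in culture 1 and -0.33 in culture 2, and on Sp_EMA -0.04 and -0.06. The 54 genes of the small subunit showed the same gap on Sp_TMA, where all 54 were lower in the H2O2 array of culture 2, with a median of -0.22. The part of this gap in the calls below was not tested, and the counts of calls are also given without either of the H2O2 arrays. Signals are relative to the other RNAs on an array, so a change in the total RNA of a cell cannot be seen.

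**Figure D2:**
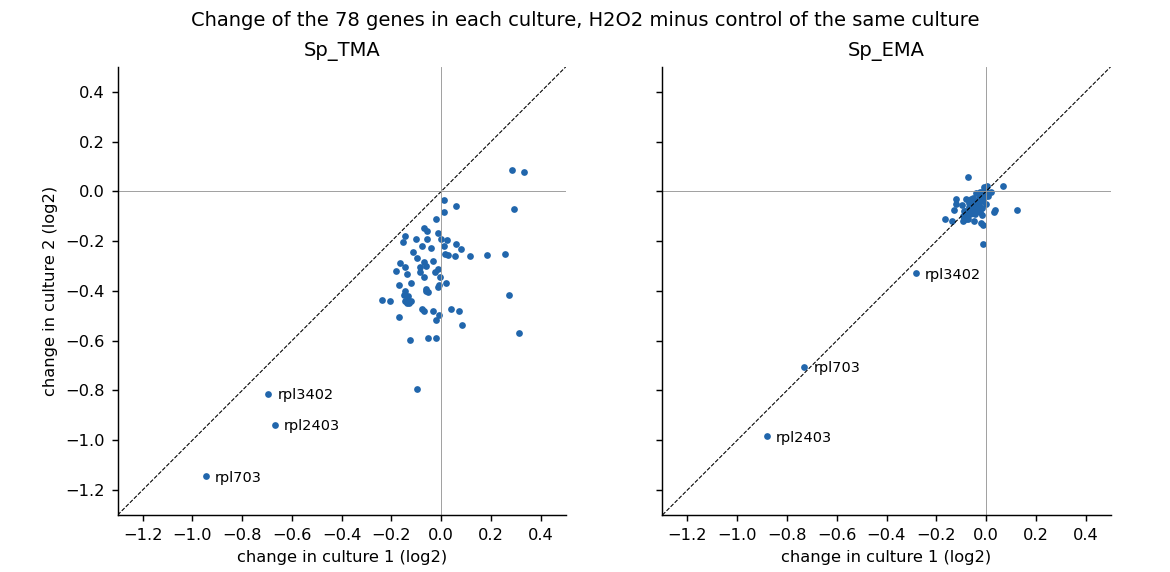
Change of each of the 78 genes in culture 1 (horizontal axis, log2) and culture 2 (vertical axis, log2), each against the control of the same culture, on Sp_TMA and Sp_EMA. The dashed line marks equal changes, and on Sp_TMA all 78 points lie below it.

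Most large-subunit genes were not called. On Sp_TMA 9 of the 78 were lower in H2O2 and none was higher (11.5% lower, against 31.3% of all genes lower and 25.2% higher), and 69 were not called. On Sp_EMA 3 were lower and none was higher (3.85%, against 36.2% of all genes lower and 22.7% higher). No member was higher at an unadjusted p below 0.05 either, while 16 on Sp_TMA (20.5%, against 33.9% of all genes) and 5 on Sp_EMA (6.41%, against 38.8%) were lower at that level. The median change was -0.19 on Sp_TMA and -0.05 on Sp_EMA, beside -0.05 and -0.07 for all genes. Small negative values were nevertheless the rule, with 74 of 78 changes below 0 on Sp_TMA (94.9%, against 54.8% of all genes) and 72 on Sp_EMA (92.3%, against 61.0%). The 4 exceptions on Sp_TMA were rpl1603 (0.20), rpl39 (0.18), rpl3002 (0.11) and rpl4302 (0.00), and on Sp_EMA the highest was rpl1002 (0.04). Both H2O2 arrays lay below both control arrays in 54 genes on Sp_TMA (69.2%, against 44.7% of all genes) and in 58 on Sp_EMA (74.4%, against 51.2%).

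The count on Sp_TMA depended on single arrays. Without the H2O2 array of culture 2 it was 3 lower (3.85%, against 27.0% of all genes) and 1 higher (rpl1603, 0.32). Without that of culture 1 it was 43 lower (55.1%), a larger share than the 27.3% of all genes that were then lower. Without the control array of culture 1 or culture 2, it was 4 (5.13%, against 23.6%) and 3 (3.85%, against 23.9%). With the culture as a block it was 21 (26.9%, against 30.3%). On Sp_EMA the count stayed at 3 in each of these cases, and was 26 (33.3%, against 38.9% of all genes) when the variance was allowed to depend on the signal. The 3 genes lower on both platforms, rpl703, rpl2403 and rpl3402 (27.0% of all genes were lower on both), were called in every one of these fits on both platforms.

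**Figure D3:**
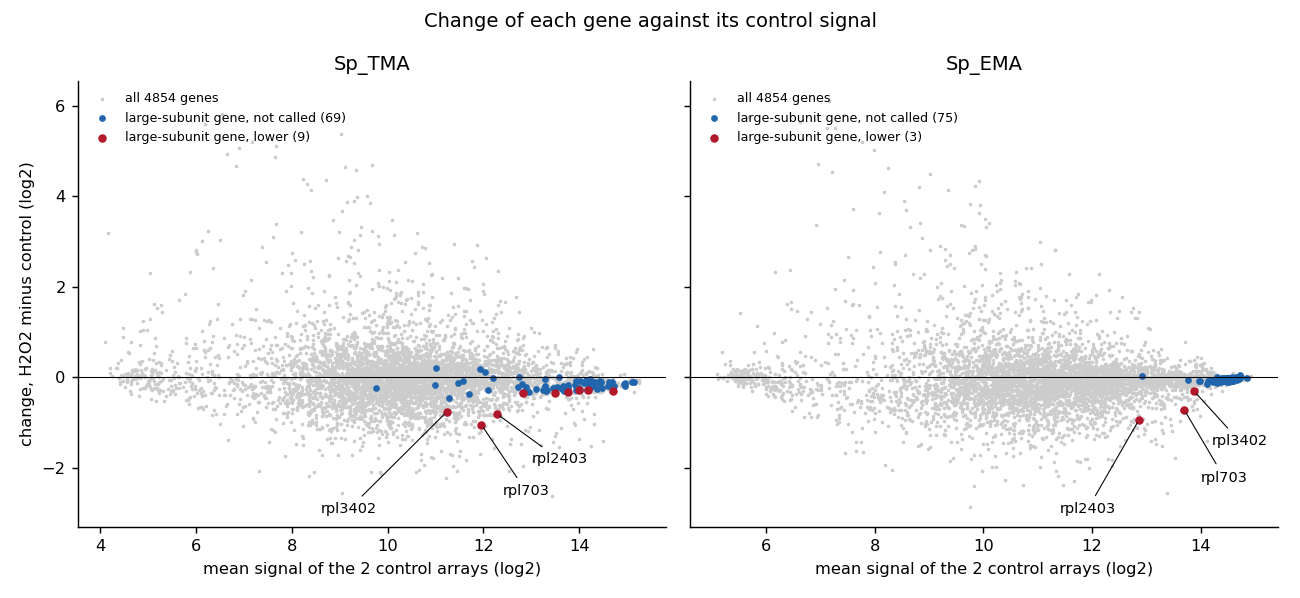
Change in H2O2 (vertical axis, log2) against the mean signal of the 2 control arrays (horizontal axis, log2) for all 4854 genes in grey, large-subunit genes not called in blue and large-subunit genes called lower in red, on Sp_TMA and Sp_EMA. Most large-subunit genes sit at the bright end just below 0, and rpl703, rpl2403 and rpl3402 lie apart by their larger falls. On Sp_TMA low signal does not set them apart, since genes that were not called, such as rpl3801 (9.75) and rpl3602 (10.99), are dimmer.

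The largest falls were those of the 2 genes that are not ribosomal proteins. Gene rpl703 (SPAC664.06, chromosome I, 1712785 to 1713921, forward strand, 2 coding exons) encodes Rlp7, which in budding yeast is needed to process the precursor of the large-subunit RNAs. Its signal on Sp_TMA was 11.99 and 11.92 in the control arrays and 11.05 and 10.78 in the H2O2 arrays. On Sp_EMA it was 13.74 and 13.66 in control and 13.01 and 12.95 in H2O2. The groups did not overlap on either platform, and the change was -1.05 ± 0.11 (SE, n = 2 arrays per group, limma adjusted p = 0.000426) and -0.72 ± 0.06 (adjusted p = 0.000447), a fall of 2.06-fold and 1.64-fold. It resembles rpl701, taken here as a gene for uL30 (55.4% identical in protein), for which the changes were -0.25 on Sp_TMA and -0.06 on Sp_EMA, neither called.

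Gene rpl2403 (SPAC22E12.13c, chromosome I, 5043386 to 5044722, reverse strand, 3 coding exons) encodes Rlp24, a relative of eL24 that holds its place in the precursor particle in budding yeast. It fell from 12.24 and 12.32 to 11.57 and 11.38 on Sp_TMA, and from 12.83 and 12.90 to 11.95 and 11.92 on Sp_EMA. The falls of 0.80 ± 0.09 (SE, n = 2 arrays per group, limma adjusted p = 0.000688) and 0.93 ± 0.05 (adjusted p = 0.00017) were larger than the spread between the arrays of a group. The eL24 genes themselves, rpl24 and rpl2402, share 26.2% of residues with Rlp24 and had changes of -0.27 and -0.27 on Sp_TMA and -0.09 and -0.05 on Sp_EMA, none of them called.

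Among the 76 genes of ribosomal proteins, 7 were lower on Sp_TMA (9.21%, against 31.3% of all genes) and 1 on Sp_EMA (1.32%, against 36.2%). The one lower on both was rpl3402 (SPCC1322.15, chromosome III, 1321348 to 1322217, forward strand, 1 coding exon), one of 2 genes for the small protein eL34. Its signal on Sp_TMA was 11.35 and 11.13 in control and 10.65 and 10.32 in H2O2, and on Sp_EMA 13.87 and 13.89 in control and 13.59 and 13.56 in H2O2. No H2O2 array reached a control array, and the change was -0.75 ± 0.14 (SE, n = 2 arrays per group, limma adjusted p = 0.00397) on Sp_TMA and -0.30 ± 0.05 (adjusted p = 0.00435) on Sp_EMA.

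Its paralogue rpl34 (SPAC23A1.08c, chromosome I, 4093344 to 4093798, reverse strand) differs from it at 5 residues. It read 14.041 and 14.002 in control and 14.16 and 13.74 in H2O2 on Sp_TMA, with overlapping groups, and 14.43 and 14.42 against 14.41 and 14.33 on Sp_EMA. The changes were -0.07 and -0.06 and were not called (adjusted p = 0.685 and 0.427, limma). The difference in change between the copies was 0.68 (95% interval 0.21 to 1.15) on Sp_TMA and 0.25 (0.06 to 0.44) on Sp_EMA, the only pair of paralogues whose interval left out 0 on both platforms. The brighter copy was rpl34 on all 8 arrays, by 2.69 to 3.50 on Sp_TMA and by 0.53 to 0.83 on Sp_EMA. In its promoter the HomolD box is complete, while that of rpl3402 has the 7-base core followed by another base. Over 9 other settings, the interval of the pair left out 0 in 8 on Sp_TMA (not without the control array of culture 1) and in 6 on Sp_EMA (not without the control array of culture 2 or either H2O2 array).

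**Figure D4:**
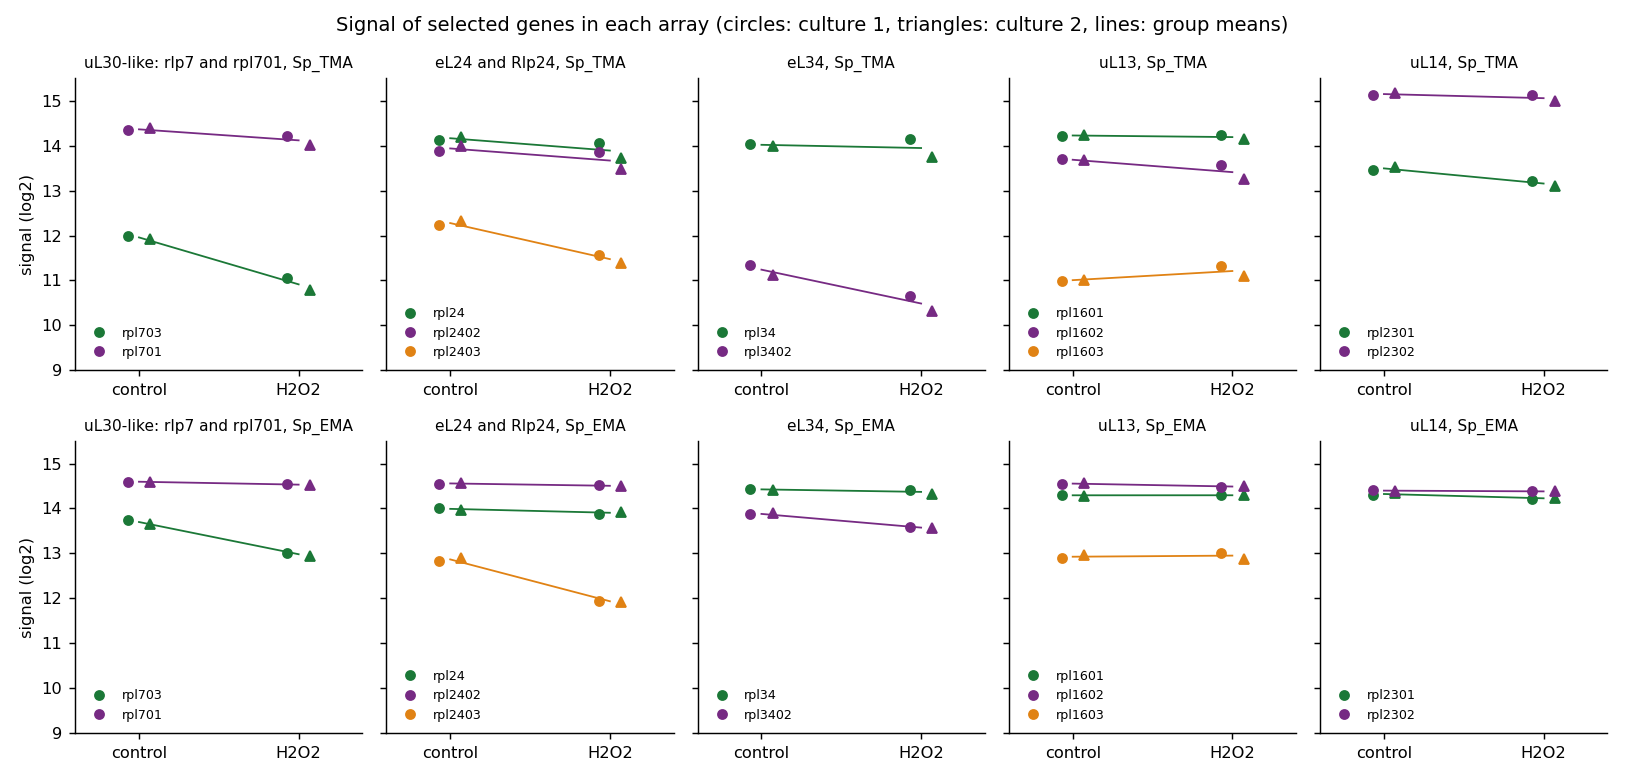
Signal (vertical axis, log2) of selected genes in the control and H2O2 arrays of Sp_TMA (top) and Sp_EMA (bottom), with circles for culture 1, triangles for culture 2 and lines between group means. Genes rpl703, rpl2403 and rpl3402 drop on both platforms. Beside them, rpl701, rpl24, rpl2402 and rpl34 had changes between -0.27 and -0.07 on Sp_TMA and between -0.09 and -0.05 on Sp_EMA.

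Paralogues were compared in 37 pairs within the 29 families. In 6 pairs the proteins are identical and in 11 they differ at 1 to 5 residues, and the identity over all pairs ranges from 77.9% to 100% (median 95.7%). The coding sequences are 66.1% to 97.9% identical. The array tables used only probes with a single exact match in the genome, but a near match to a paralogue can still bind, and up to 66.2% of the 25-base words of one coding sequence recur in its partner (rpl1001 and rpl1002, median 0.766% over pairs). For most pairs the copies differed by less than the error of the comparison. The median absolute difference in change was 0.10 on Sp_TMA and 0.04 on Sp_EMA. The interval left out 0 in 2 of 37 pairs on Sp_TMA (5.41%, against 6.43% of pairs of members that encode different proteins and 65.7% of pairs of any 2 genes) and in 1 on Sp_EMA (2.7%, against 2.56% and 69.8%). These intervals treat the errors of the copies as independent, and the median one reached 0.37 to either side on Sp_TMA and 0.18 on Sp_EMA.

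**Figure D5:**
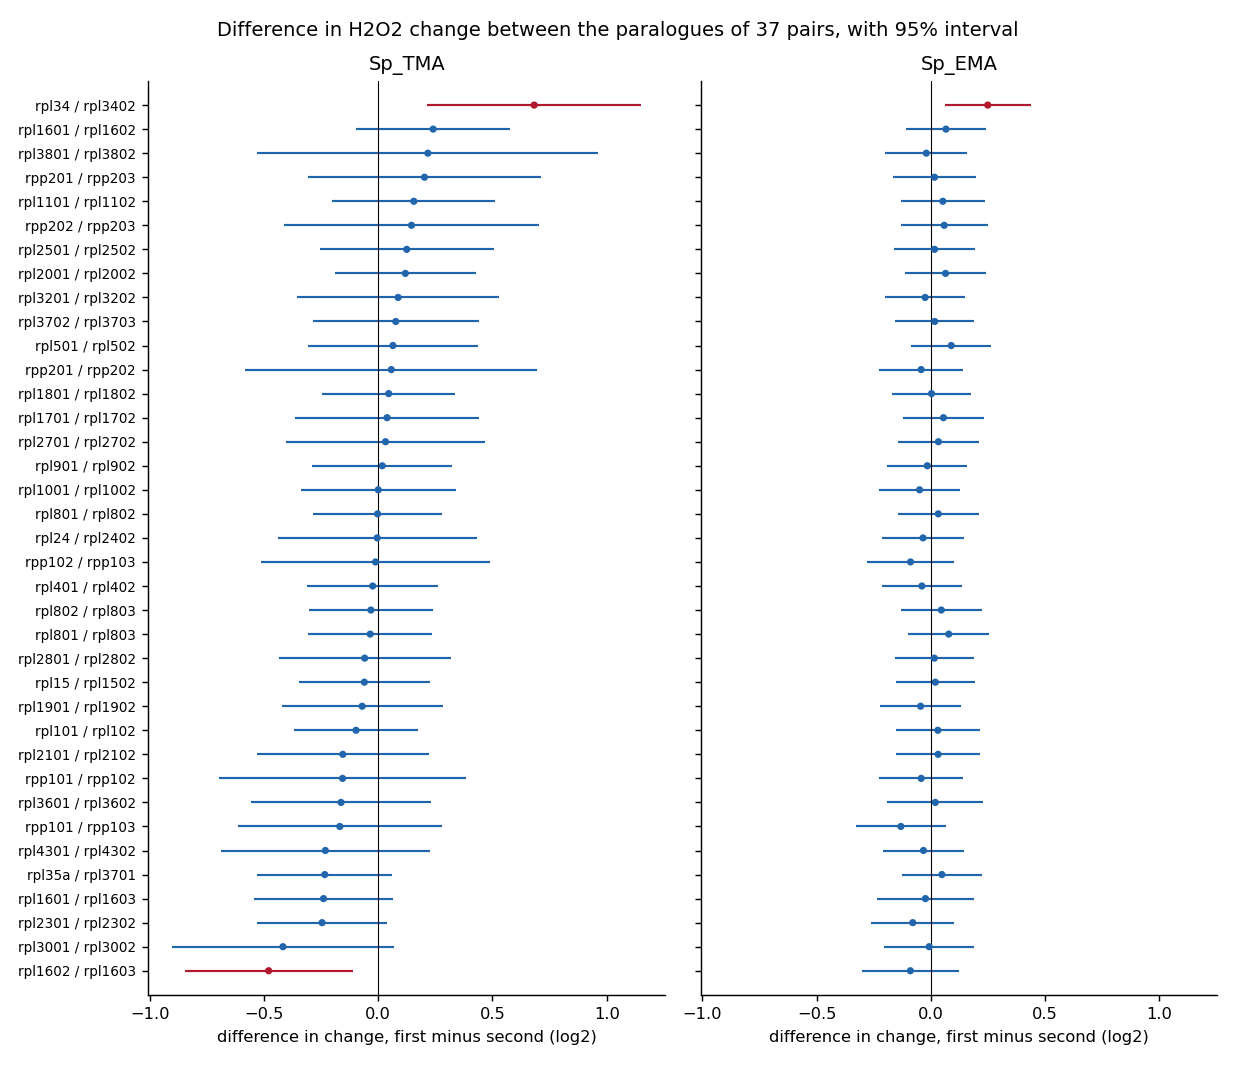
Difference in change between the first and the second gene of each of 37 paralogue pairs (horizontal axis, log2, points) with its 95% interval (lines) on Sp_TMA and Sp_EMA, ordered by the value on Sp_TMA. Red marks intervals that leave out 0, which are rpl34 / rpl3402 on both platforms and rpl1602 / rpl1603 on Sp_TMA.

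The error was also taken from the difference of the copies within each array, which removes what an array adds to both. The variance was shared over the pairs, on Sp_EMA fully, so that all pairs there had the same standard error of 0.0347. With this error, 13 pairs on Sp_TMA (35.1%) and 7 on Sp_EMA (18.9%) left out 0. For pairs of members that encode different proteins the shares were 14.6% and 21.0%, from a separate fit with its own shared variance. In this form 4 pairs left out 0 in the same direction on both platforms: rpl34 / rpl3402, rpl1602 / rpl1603, rpl2301 / rpl2302 and rpp101 / rpp103.

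The pair that differed on Sp_TMA besides eL34 belongs to uL13, a protein with 3 genes. Gene rpl1603 (SPBC2G2.05, chromosome II, 3443254 to 3445951, forward strand) read 10.99 and 11.02 in control and 11.33 and 11.09 in H2O2 on Sp_TMA, and 12.89 and 12.96 against 13.02 and 12.88 on Sp_EMA. Its changes of 0.20 and 0.02 were not called, and the groups overlap on Sp_EMA. On Sp_TMA rpl1602 read 13.70 and 13.67 in control and 13.57 and 13.26 in H2O2, a change of -0.28 that was not called. Their difference was -0.48 (95% interval -0.85 to -0.11) on Sp_TMA and -0.09 (-0.30 to 0.12) on Sp_EMA. Leaving out either control array widened the interval on Sp_TMA over 0. The third copy, rpl1601, had changes of -0.04 and 0.00. The copies also differed in signal, since rpl1603 was below rpl1601 by 2.91 to 3.23 on Sp_TMA and by 1.28 to 1.41 on Sp_EMA, and was 1 of the 3 dimmest members on both platforms.

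In the other 4 of the 6 families with the largest differences on Sp_TMA the intervals from combined errors held 0. Those from per-array differences left out 0 on Sp_TMA in all 4, and on Sp_EMA only in uL14. Because the families were picked by their differences on Sp_TMA, the intervals on that platform are no independent support. Genes rpl2301 and rpl2302 encode the same uL14, a protein of the face that meets the small subunit. Gene rpl2301 read 13.46 and 13.54 in control and 13.22 and 13.10 in H2O2 on Sp_TMA, a fall of 0.34 ± 0.08 (SE, n = 2 arrays per group, limma adjusted p = 0.0145), whereas the change of -0.10 on Sp_EMA was not called. Gene rpl2302, the brightest member on Sp_TMA, read 15.14 and 15.17 in control and 15.124 and 14.997 in H2O2, a change of -0.09. The pair differed by -0.25 (95% interval -0.53 to 0.04, and -0.38 to -0.11 from per-array differences) on Sp_TMA and -0.08 (-0.26 to 0.10) on Sp_EMA.

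The eL30 genes rpl3001 and rpl3002 are the most diverged in coding sequence (66.1%), and differed by -0.42 (-0.90 to 0.07, per array -0.62 to -0.21) on Sp_TMA, where rpl3001 had a change of -0.31 and rpl3002 of 0.11. On Sp_EMA they differed by -0.01 (-0.20 to 0.19). For eL33, the gene named rpl3701 is annotated as a second copy beside rpl35a (88.9% identical) and shares 16.8% of residues with rpl3702, so it was paired with rpl35a. These 2 differed by -0.23 (-0.53 to 0.06, per array -0.37 to -0.10) on Sp_TMA and by 0.05 (-0.13 to 0.22) on Sp_EMA. The eL43 genes rpl4301 and rpl4302 differed by -0.23 (-0.69 to 0.23, per array -0.42 to -0.04) and -0.03 (-0.21 to 0.14).

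The 6 pairs with identical proteins are those of eL20, uL14 and uL5 and the 3 pairs of uL2, a protein beside the peptidyl transferase centre. Genes rpl801, rpl802 and rpl803 had changes of -0.18, -0.18 and -0.15 on Sp_TMA and -0.02, -0.06 and -0.10 on Sp_EMA. Their pairwise differences were at most 0.04 on Sp_TMA and 0.08 on Sp_EMA, with intervals from combined errors that all held 0. With the per-array error, rpl801 and rpl803 left out 0 on Sp_EMA (0.01 to 0.15). For uL5, which binds the 5S RNA, rpl1101 and rpl1102 differed by 0.16 (-0.20 to 0.51, per array 0.01 to 0.30) on Sp_TMA and by 0.05 (-0.13 to 0.23) on Sp_EMA.

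The signals of paralogues often lay well apart. The absolute mean gap had a median of 0.61 on Sp_TMA and 0.23 on Sp_EMA, and exceeded 1 in 13 pairs on Sp_TMA and 2 on Sp_EMA. These are gaps between probe sets, whose probes differ in binding, and not ratios of RNA. In 19 of 37 pairs the same copy was brighter on all 8 arrays, in 13 each platform ranked the copies in its own constant order with the platforms opposed, and in 5 the order changed within a platform. The uL1 genes had 1 of the largest constant gaps, with rpl101 above rpl102 by 2.76 to 2.96 on Sp_TMA and by 0.55 to 0.61 on Sp_EMA. The eL21 genes are an example of opposed platforms, since the gap of rpl2101 to rpl2102 was -1.77 to -1.52 on Sp_TMA and 0.20 to 0.27 on Sp_EMA.

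In control cells the brightest members on Sp_TMA were rpl2302, rpl101 and rpl801 (15.15, 15.11 and 14.96) and the dimmest rpl3801, rpl3602 and rpl1603 (9.75, 10.99 and 11.01). On Sp_EMA the brightest were rpl1001, rpl3702 and rpl1002 (14.85, 14.75 and 14.71) and the dimmest rpl2403, rpl1603 and rpl703 (12.87, 12.93 and 13.70). Apart from rpl1603, no gene was in both of these lists of the dimmest. The eL38 gene rpl3801 stood at 9.75 on Sp_TMA and at 14.46 on Sp_EMA, and its changes were -0.23 and -0.07.

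Members were also grouped by their place in the ribosome. The stalk consists of the base protein uL10, encoded by rpp0, and of the acidic proteins P1 and P2, encoded by 3 genes each. P1 and P2 are 109 to 110 residues long with 20% to 22% of aspartate and glutamate, against 0% to 14.6% in the members outside the stalk. None of the 7 genes was called on either platform, against 11.5% and 3.85% of the 78 members and 56.5% and 59.0% of all genes. All 14 changes were below 0, with medians of -0.19 on Sp_TMA and -0.07 on Sp_EMA. Such values were the rule among the members, with 94.9% and 92.3% of changes below 0, against 54.8% and 61.0% of all genes. The changes of rpp0 were -0.07 and -0.01.

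Within P1, rpp101 had the lowest values, with signals of 11.67 and 11.71 in control and 11.55 and 11.11 in H2O2 on Sp_TMA, and 14.11 and 14.13 against 13.94 and 14.02 on Sp_EMA. Its groups did not overlap on either platform, and the changes of -0.36 and -0.14 stayed short of the threshold (adjusted p = 0.0735 and 0.075, limma). With the culture as a block, its adjusted p on Sp_TMA was 0.00797. The other P1 genes, rpp102 and rpp103, had changes of -0.20 and -0.19 on Sp_TMA and -0.10 and -0.01 on Sp_EMA. For P2, rpp201, rpp202 and rpp203 had changes of -0.07, -0.13 and -0.27 on Sp_TMA and -0.07, -0.03 and -0.08 on Sp_EMA. The H2O2 array of culture 2 on Sp_TMA was below that of culture 1 in all 7 stalk genes, with a median gap of -0.43.

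Of the 12 genes for proteins that line or surround the exit tunnel, 1 was lower on Sp_TMA (8.33%, against 31.3% of all genes) and none on Sp_EMA. It was rpl1702, 1 of 2 genes for uL22, at 14.64 and 14.76 in control and 14.50 and 14.32 in H2O2, a change of -0.29 (limma adjusted p = 0.0382) beside -0.11 on Sp_EMA. The only member that encodes eL39, a very small protein at the mouth of the tunnel, was the tunnel gene with the highest change on Sp_TMA. This gene, rpl39, read 11.82 and 12.03 in control and 12.11 and 12.12 in H2O2, a change of 0.18 that was not called (limma adjusted p = 0.143), beside -0.07 on Sp_EMA. None of the 4 genes for uL5 and uL18, which form a particle with the 5S RNA, and none of the 2 genes for uL1, which forms the mobile stalk at the tRNA exit side, was called on either platform. The median change of the uL5 and uL18 genes was -0.25 on Sp_TMA and -0.06 on Sp_EMA, and that of the uL1 genes was -0.06 on each platform. The 6 genes for uL2, uL16 and eL42, which lie near the tRNAs in the catalytic centre, were not called, with medians of -0.16 and -0.04. Over all genes 56.5% and 59.0% were called, and over the 78 members 11.5% and 3.85%. Groups this small cannot be set apart from the other members by the lack of a call.

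The remaining calls on Sp_TMA were for genes of the other 45 members, 6 lower in all (13.3%, against 31.3% of all genes). Of these, rpl3402 and rpl2301 are described above. Gene rpl22 (eL22) read 13.78 and 13.76 in control and 13.57 and 13.32 in H2O2, a change of -0.32 (limma adjusted p = 0.0352). Gene rpl3601 (eL36) had a change of -0.34 (adjusted p = 0.0467, limma), rpl2701 (eL27) of -0.29 (0.0494) and rpl44 (eL28) of -0.27 (0.0466). For these 4 the H2O2 arrays lay below the control arrays, and the changes on Sp_EMA were between -0.09 and -0.05 and were not called. These calls, and that of rpl1702, were lost on Sp_TMA without the H2O2 array of culture 2 or without either control array, and that of rpl2301 without the H2O2 array or the control array of culture 2. Members with a paralogue in the set and members without one there had medians of -0.19 and -0.19 on Sp_TMA and of -0.05 and -0.04 on Sp_EMA.

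Changes were set against the promoter and the gene structure over the 76 ribosomal protein genes, with no test. The medians of genes with and without the full HomolD box were -0.18 (n = 48 genes) and -0.23 (n = 28) on Sp_TMA, and -0.05 and -0.05 on Sp_EMA. Of these, 4 and 3 genes were lower on Sp_TMA, where 9.21% of the 76 genes and 31.3% of all genes were lower. By number of coding exons, the medians on Sp_TMA were -0.18 for the 37 genes with 1 exon, -0.19 for the 35 with 2 and -0.28 for the 4 with 3. By chromosome they were -0.23 for the 27 genes on I, -0.17 for the 31 on II and -0.20 for the 18 on III.

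The change of a member was lower on Sp_TMA than on Sp_EMA in 72 of the 78 genes, against 1989 of all 4854 genes. The median difference was -0.16 (0.05 over all genes). The 95% interval of the difference left out 0 for 2 members, against 16.5% of all genes. They were rpl3402, by -0.45 (-0.82 to -0.08), and rpl703, by -0.33 (-0.64 to -0.01). With the change taken per culture as a block, the count was 11. The share of all genes under that setting is not given here, so the 11 cannot be set against the 16.5%. The 2 H2O2 arrays of Sp_TMA, with the gap between them described above, enter all these differences.

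Other genes of the ribosome were set beside the members from lists by name. The 54 small-subunit genes had medians of -0.18 on Sp_TMA and -0.05 on Sp_EMA. On Sp_TMA 9 were lower (16.7%, against 31.3% of all genes) and on Sp_EMA 2 (3.7%, against 36.2%), and none was higher. One of them, rps1401 (uS11), named after its values were seen, fell on both platforms, by 0.70 (limma adjusted p = 0.0188) and 0.91 (adjusted p = 0.000554). In their promoters, HomolD stood before 34 of the 54 small-subunit genes (63.0%) and its 7-base core before 50 (92.6%). Of the 4 genes that encode ubiquitin fused to a ribosomal protein, 2 were lower on Sp_TMA and 1 on Sp_EMA. The latter, uep1, which carries the large-subunit protein eL40, was lower on both, by 0.46 (limma adjusted p = 0.0196) and 0.17 (adjusted p = 0.0316), while ubi1, with the same fusion partner, had changes of -0.10 and -0.10.

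Of 42 genes for factors that assemble the large subunit, 34 were lower on Sp_TMA (81.0%, against 31.3% of all genes) and 33 on Sp_EMA (78.6%, against 36.2%), and none was higher. Their median changes were -0.64 and -0.54, beside -0.19 and -0.05 for the 78 members, a difference that was not tested. After removal of 4 genes that only share a name with an assembly factor, noticed after the values were seen, 33 and 32 of 38 were lower. The values of rpl703 and rpl2403 lie within the range of this list, -1.14 to 0.19 on Sp_TMA and -1.85 to 0.00 on Sp_EMA. That range is wide and also holds most of the 78 members, so it does not set these 2 genes apart from them. On Sp_TMA the H2O2 array of culture 2 lay only 0.07 below that of culture 1 in these genes in the median.

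Of 8 genes for regulators of ribosomal protein synthesis or their kinases, 2 were higher and 5 lower on Sp_TMA. On Sp_EMA 2 were higher and 4 lower. Over all genes, 25.2% were higher and 31.3% lower on Sp_TMA, and 22.7% and 36.2% on Sp_EMA. The list is too short to set it apart from these shares. On both platforms sck1, a kinase of the S6 kinase family, and the gene annotated as the corepressor Ifh1 were higher. The gene sck2, of the same kinase family as sck1, was lower on both, by 0.36 (limma adjusted p = 0.00644) and 0.23 (adjusted p = 0.0418), and rrn7, for an initiation factor of RNA polymerase I, was lower by 0.27 (adjusted p = 0.0327, limma) and 0.35 (adjusted p = 0.014). The gene for sfp1, named after an activator of ribosomal protein genes in budding yeast, fell by 0.76 (limma adjusted p = 0.000513) on Sp_TMA and 1.05 (adjusted p = 0.000145) on Sp_EMA. The kinase gene psk1, whose product phosphorylates the small-subunit protein eS6, fell by 0.87 (adjusted p = 0.000251, limma) and 0.98 (adjusted p = 0.000193). The forkhead factor gene fhl1 had changes of 0.23 and 0.20 that were not called (adjusted p = 0.0687 and 0.12, limma).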

How the data were processed

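Total RNA of 4 samples was hybridized to both Affymetrix arrays. Per the paper's methods and the labels, the authors kept probes with a single match in the genome and within annotated genes (a Sanger Centre release), grouped at least 4 of them per gene in custom chip description files, and processed each platform by RMA, that is, background adjustment, quantile normalization and median polish. The deposited values are log2 signals per gene and array. No columns were left unused. The target for Sp_EMA was double-stranded, so antisense RNA is not separated there.

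Groups came from the titles. Each platform was fitted separately over all 4854 genes with limma 3.58.1 (lmFit and eBayes, R 4.3.3) on the log2 signals, without a block, and p-values were adjusted by Benjamini-Hochberg with a threshold of 0.05. With 2 against 2 arrays, the smallest p of an exact permutation test would be 0.333, so none was run for single genes. Each error rests on 2 residual degrees of freedom plus the prior that limma takes from all genes (6.22 in all on Sp_TMA and 5.03 on Sp_EMA). The number of cultures limits the precision. Differences between paralogues or platforms carry a 95% interval from the combined standard errors. The fits were also run on simulated data with errors drawn independently for each gene and array. That simulation does not cover a shift that many genes share on an array.

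The methods state that each culture was sampled before and after treatment, so same-numbered arrays are paired. The gaps between cultures correlated at -0.06 on Sp_TMA and 0.25 on Sp_EMA between control and H2O2 over all genes.

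The members and all lists were chosen with earlier results of these data known. The genes named were those with the largest changes among genes called on both platforms, all rpp genes, the 6 families whose copies differed most, and the 3 brightest and dimmest on each platform; others are examples chosen after their values were seen. Genes were matched by systematic name to the RefSeq annotation of build ASM294v3 (4845 matched, 9 not). The tables hold no coordinates, and positions and promoters are those of that build. Shared words, motifs and identities were computed in Python 3.11.15 with Biopython 1.88.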

Additional observations from a re-analysis of the deposited data

How the results depend on the processing

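On Sp_TMA the number of members called lower, 9, was 21 with the replicate block, 30 after a further quantile normalization of the gene values, 15 without the dimmest 25% of genes and 3 at an adjusted p below 0.01. After quantile normalization that is 38.5% of members, against 34.3% of all genes lower. Leaving out 1 array gave 3 to 43 lower and 0 to 1 higher, and a median change between -0.331 and -0.074. The 9 genes were all among those called with the block, after quantile normalization and without the dimmest genes. On Sp_EMA the count of 3 became 26 with a trend of the variance on signal, and the median change was -0.0199 after quantile normalization. It stayed at 3 with the replicate block, which changed no call there. The number of paralogue pairs whose interval left out 0 on Sp_TMA, 2, was 5 after quantile normalization and 13 with the error from per-array differences, and 0 to 4 without 1 array. On Sp_EMA, 1 became 5 with the variance trend, 2 after quantile normalization and 7 with the per-array error, and 0 to 1 without 1 array. The number of members whose change differed between platforms, 2, was 11 with the replicate block on the change per culture, for which no share of all genes is given. The cause was not tested for any of these shifts. Fits without 1 array assume that the lone array of a group varies like the other group. The setting with only genes on both platforms gave no other value, because both tables hold the same genes. Calls of rpl703, rpl2403 and rpl3402 held under all 10 alternatives on each platform. Many members lie near the top of the signal scale, mostly on Sp_EMA, and whether this compresses a change was not tested.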
